A study of Homo sapiens with 2 samples.

Results

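The genes of DNA replication licensing, 10 in number, were followed in HEK293T cells, a human embryonic kidney line, among 28117 named genes: the helicase subunits MCM2, MCM3, MCM4, MCM5, MCM6 and MCM7, the loading factors CDT1 and CDC6, the inhibitor GMNN, and MCM10, which acts when the helicase is switched on. The 10 members share a role, and the set was chosen by a measured value, since CDT1 had one of the lowest S phase ratios in the tRF-3004b library. The ratios below are therefore a description, and no test was made on them. One library came from cells reverse transfected with a mimetic of tRF-3004b, a short RNA cut from a transfer RNA, and 1 from cells given a non-targeting RNA called GL2. Both RNAs were used at 500 nM, cells were taken after 120 h, and poly-A RNA was sequenced. With 1 library per group there is no replicate, so a difference between conditions and a difference between 2 cultures or libraries cannot be told apart, and every 95% interval covers counting error only.

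Licensing prepares each replication origin to fire once in a cell cycle. In G1 the origin recognition complex and CDC6 recruit CDT1, which brings the ring of MCM2 to MCM7 and leaves it closed around DNA as an inactive double ring. Kinases then switch the ring on together with CDC45 and the GINS complex, while geminin, the product of GMNN, binds CDT1 and blocks further loading until the cell has divided. Many of these genes are known targets of the E2F factors, and CDT1 protein is also destroyed in S phase, so its transcript level need not follow the protein.

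The transfected tRF-3004b RNA is shown with its seed (bases 2 to 8) in capitals, because a search for the seed complement in the members follows below.
tRF-3004b: uCAAAUCUcgguggaaccucca

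Promoters of the members are shown with E2F binding motifs, since many of these genes are known E2F targets. The letters did not enter the choice of members, but their shared role in licensing did. The letters TTTCCCGC, TTTGGCGC, TTTGCCGC and TTTCGCGC were searched on both strands from 250 bases before to 50 bases after each RefSeq start on GRCh38.p14. Of the 10 members 8 had an entry, with 11 promoters in all, and MCM4 and MCM5 had none. A motif lay in a promoter of 7 of the 8 genes (87.5%), against 1090 of all 27305 genes with an entry (3.99%). The exception was MCM10. The 27305 genes were not limited to those detected in these libraries. A high share could be foreseen from a list with many known E2F targets, so nothing is read from it. In the stretches below capitals mark every base covered by a match, and each sequence reads 5′ to 3′ on the gene's own strand.
MCM2 (chr3:127598402-127598431, plus strand): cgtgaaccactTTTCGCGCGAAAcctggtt
MCM3 (chr6:52284728-52284757, minus strand): agttcggaagtTTTCGCGCcggggtggagt
MCM6 (chr2:135876515-135876544, minus strand): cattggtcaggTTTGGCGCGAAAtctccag
MCM7 (chr7:100101388-100101417, minus strand): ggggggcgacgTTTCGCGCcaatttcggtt
CDC6 (chr17:40287875-40287904, plus strand): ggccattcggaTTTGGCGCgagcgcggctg
GMNN, second of 2 starts (chr6:24775322-24775351, plus strand): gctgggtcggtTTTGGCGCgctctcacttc
CDT1 (chr16:88803743-88803772, plus strand): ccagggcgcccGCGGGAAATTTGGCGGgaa

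The MCM6 and MCM2 stretches each hold 2 overlapping matches, 1 on either strand, and MCM6 has such a pair at 2 places. In CDT1 the match to TTTCCCGC lies on the minus strand, 35 bases before the start, and reads GCGGGAAA on the plus strand shown. The capitals after it in CDT1 are TTTGGCGG, a form added after the promoters were seen, which also lies in CDC6 and in MCM10. With that form counted, all 8 genes had a match, against 4.72% of all genes. Within the 250 bases before the start alone, 5 of the 8 had one of the 4 motifs. Of the other lists, a motif was found in 1 of 7 genes listed for the origin recognition complex and 5 of 9 of helicase activation and origin firing. A motif also lay in 3 of 6 MCM relatives and partners and 2 of 11 genes of protein turnover. It was found in 1 of 6 G1 and S cyclins and kinases, 5 of 11 E2F and RB factors, 10 of 23 fork genes, 2 of 7 genes of deoxynucleotide supply and 1 of 15 of G2 and M phase. A match is a description of the letters, and binding was not measured. Of the genes whose mean CPM (counts scaled to the library size) reached 1, the 730 with a motif had a median log2 ratio of -0.10 between the libraries and the 10176 without one also had -0.10.

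The members' levels spanned a wide range, given here as gene TPM (transcript abundance corrected for length). In the control library MCM4 stood at 340 TPM (counting interval 334 to 346) and GMNN at 337 TPM (325 to 349), intervals that overlap. MCM3 followed at 282 TPM, MCM6 at 220 TPM, MCM7 at 170 TPM, MCM2 at 107 TPM, MCM10 at 96.9 TPM, CDC6 at 63.1 TPM and MCM5 at 41.8 TPM. CDT1 was the lowest, at 13.5 TPM (12.0 to 15.1). All other neighbours in this order had intervals that did not overlap.

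In the tRF-3004b library GMNN was the highest, at 609 TPM (562 to 659), and MCM4 was second at 209 TPM (195 to 224). MCM3 stood at 188 TPM (171 to 206), which overlaps MCM4. MCM6 at 142 TPM and MCM7 at 130 TPM overlapped in their intervals, as did MCM2 at 65.7 TPM, MCM10 at 60.7 TPM and CDC6 at 60.3 TPM. MCM5 was at 26.4 TPM and CDT1 at 2.73 TPM (1.10 to 5.62). The order of the 10 genes was thus nearly the same in both libraries, with GMNN and MCM4 exchanging the first and second places. Counts per kilobase of each gene's most abundant transcript, in place of gene TPM, put GMNN at place 5 in the control and at place 1 in the tRF-3004b library.

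**Figure D1:**
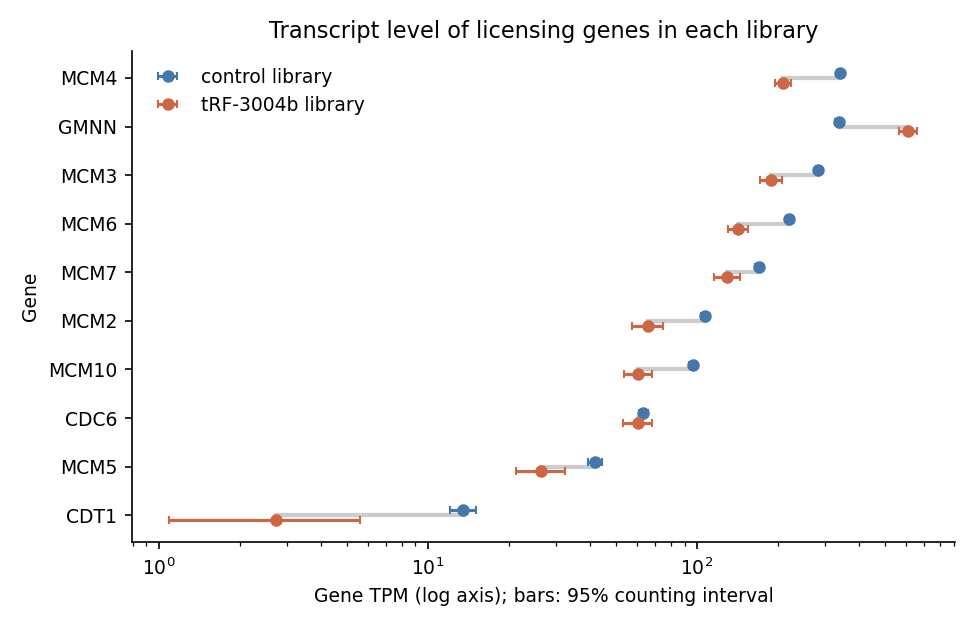
Gene TPM (log axis) of the 10 licensing genes in the control and tRF-3004b libraries, 1 point per library, with bars for the 95% counting interval. GMNN is the one gene with a higher TPM in the tRF-3004b library (609 against 337), and CDT1 is the lowest gene in both (13.5 and 2.73). With gene TPM and 1 added, 69.5% of all genes that reached a mean CPM of 1 were lower in the tRF-3004b library.

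The proportions of the 6 helicase subunits depended on which MCM3 transcripts were summed. In gene TPM with 1 added, all genes had a median log2 ratio of -0.38 between the libraries. The 6 subunits together summed to 1160 TPM in control cells and 762 TPM after tRF-3004b. MCM4 made up 29.3% of that sum in the control and 27.5% in the tRF-3004b library, MCM3 24.3% and 24.7%, and MCM6 18.9% and 18.7%. MCM7 made up 14.6% and 17.0%, MCM2 9.22% and 8.62%, and MCM5 3.61% and 3.46%. The share of MCM7 was thus 1.16 times its control value, and those of the other subunits were between 0.936 and 1.02 times theirs. The sums include non-coding transcripts, which held 88.1 of the 282 control TPM of MCM3 and 9.55 of its 188 TPM after tRF-3004b. Over coding transcripts alone, an alternative added after seeing the data, MCM3 made up 18.1% and 23.8% of the sum, MCM4 31.7% and 27.8%, and MCM7 15.8% and 17.3%. Although the finished ring holds the subunits in equal number, the MCM4 transcript was 8.14 times as abundant as that of MCM5 in control cells and 7.93 times after tRF-3004b.

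Most helicase subunits were slightly lower in the tRF-3004b library, CDT1 was much lower, and GMNN was higher. Ratios are given as log2 of the tRF-3004b over the control library, from counts scaled for library size (TMM factors). Of the 10 members 8 had a ratio below 0, where 55.5% of the 13750 genes that reached a mean CPM of 1 did. The interval lay below 0 for 7 members (28.6% of all genes) and above 0 for 2 (23.3%). CDT1 alone was at least 2-fold lower (14.2% of all genes) and GMNN alone at least 2-fold higher (12.2%). The median over the 10 was -0.30, beside -0.11 over all genes, and was -0.14 with the length trend removed, beside -0.015. All 10 reached a CPM of 1 in each library. Since this contrast chose the set, nothing is read from these counts. In bulk RNA, fewer cells in a phase of the cycle and less RNA per cell cannot be told apart.

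**Figure D2:**
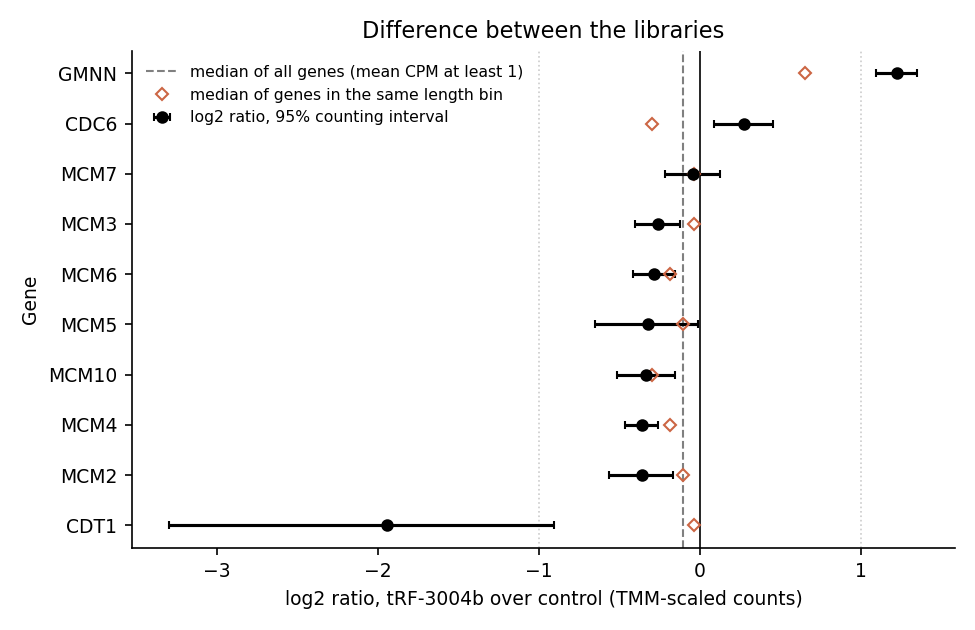
Log2 ratio of each licensing gene (tRF-3004b over control, TMM-scaled counts) with its 95% counting interval, the median of all genes as a dashed line and, as diamonds, the median of genes of similar transcript length. Dotted lines mark 2-fold, which the points of CDT1 (-1.94) and GMNN (1.23) pass. The interval of CDT1 reaches -0.91, and GMNN stands at 0.57 with the length trend removed.

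CDT1, the factor that brings the helicase to origins (chromosome 16, 88803789 to 88809258, GRCh38), had 307 control counts, against 7 from the tRF-3004b library. These are 15.4 and 3.94 CPM, a 3.85-fold lower level. The log2 ratio was -1.94, with an interval from -3.29 to -0.91 that is wide because of the 7 counts. It ranked 569 from the lowest among 13750 genes. Of 903 genes whose control CPM lay within 20% of that of CDT1, the median gene had 24 counts in the tRF-3004b library, and 50 (5.54%) had 7 or fewer. The low ratio of CDT1 led to the choice of the set, so nothing is read from this rank or this share. CDT1 had a mean CPM of 9.67, so it was the only member under a mean CPM of 10. Under the 7 other settings tried for its ratio it stayed between -1.99 and -1.76. Its transcript had 64.9% G and C, in the highest of 10 bins, whose median ratio was 0.13. Of the 31-base words of its GENCODE 29 transcript 7.51% also occurred in transcripts of other genes, and no RefSeq gene overlapped it.

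GMNN, which encodes the CDT1 inhibitor geminin (chromosome 6, 24774937 to 24786099), had 2937 and 612 counts, or 147 CPM for the control and 345 CPM for tRF-3004b. It was 2.34-fold higher, with a log2 ratio of 1.23 (interval 1.10 to 1.35). With the opposite difference of CDT1, GMNN had 24.9 times the TPM of CDT1 in control cells and 223 times after tRF-3004b. The value of 223 rests on 7 counts of CDT1, and no interval was taken for it. GMNN was also the shortest member. Its effective length was 982 bases, in the shortest of 10 length bins, where the median gene had a log2 ratio of 0.65. In that bin 24.3% of genes were at least 2-fold higher. With the bin medians subtracted, GMNN stood at 0.57, under 2-fold.

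CDC6, the ATPase that works with the origin recognition complex in loading (chromosome 17, 40287879 to 40304657), had 2515 and 271 counts, or 126 and 153 CPM. Its log2 ratio was 0.27 (interval 0.09 to 0.46), but with gene TPM and 1 added it was -0.065, where the median of all genes moved from -0.11 to -0.38. Transcripts of its length bin had a median of -0.30, and with the bin medians subtracted CDC6 stood at 0.57. CDC6 had 4.67 times the TPM of CDT1 in control cells and 22.1 times after tRF-3004b, a value that also rests on 7 counts of CDT1. The loading factors CDT1 and CDC6 thus lay on opposite sides of 0 in scaled counts, and their intervals did not overlap.

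Among the helicase subunits, MCM4 (chromosome 8, 47960941 to 47978160) had 12020 control counts against 835, or 603 and 470 CPM. Its log2 ratio was -0.36 (interval -0.46 to -0.26). MCM2 (chromosome 3, 127598411 to 127622436), whose tail binds histones, had 3172 and 220 counts and the same ratio of -0.36 (interval -0.56 to -0.16). MCM6 (chromosome 2, 135839626 to 135876443) had 7148 and 523 counts, at -0.28 (interval -0.41 to -0.16). MCM5 (chromosome 22, 35400140 to 35455031), which with MCM2 forms the gate of the ring, had 1250 and 89 counts, at -0.32 (interval -0.65 to -0.01). MCM3 (chromosome 6, 52264015 to 52284742) had 6109 and 455 counts, at -0.26 (interval -0.40 to -0.12). The 5 intervals overlapped one another, so no order among these subunits is given.

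MCM7 (chromosome 7, 100092728 to 100101397) had 3565 and 308 counts, or 179 and 173 CPM. Its log2 ratio of -0.044 had an interval from -0.22 to 0.12 that included 0. The gene hosts the microRNAs MIR106B, MIR93 and MIR25 within its bounds, whose entries together held 1 count, from the control library. It also overlaps AP4M1, and the strand setting of the counting is not given in the sources used here. AP4M1 had 82 and 1 counts, few beside those of MCM7. Summed over MCM2 to MCM7, counts were 33264 and 2430, a log2 ratio of -0.29 (interval -0.35 to -0.23).

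MCM10 (chromosome 10, 13161558 to 13211110), which is not part of the ring and joins the helicase at firing, had 3847 and 272 counts. Its log2 ratio was -0.33 (interval -0.52 to -0.16), while the median of its length bin was -0.30. Removing the length trend gave -0.036, and removing length and GC content together gave 0.018.

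Transcript length moved with the ratios over the whole table. Genes that reached a mean CPM of 10 were put in 10 bins by length, and the bin medians ran from 0.65 for the shortest transcripts to -0.47 for the longest. The bins of the 6 helicase subunits had medians from -0.18 to -0.04. With the bin medians subtracted, MCM2 stood at -0.26, MCM3 and MCM5 at -0.22, MCM4 at -0.18, MCM6 at -0.10 and MCM7 at -0.0062, and the interval stayed below 0 for 4 of the 10 members. The part of length in the members' ratios was not tested further.

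**Figure D3:**
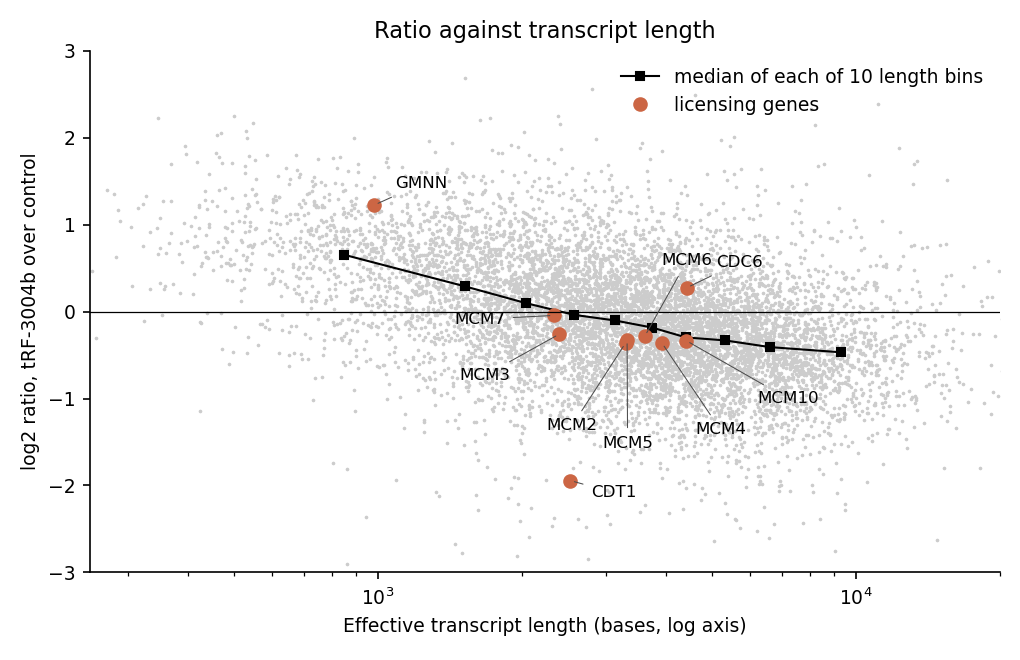
Log2 ratio against effective transcript length (log axis) for genes that reached a mean CPM of 10 (grey, shown from -3 to 3), the median of each of 10 length bins (black squares) and the 10 licensing genes (orange). MCM10 lies near the bin median, CDT1 far under it, and GMNN and CDC6 above it.

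Depth and cell identity bear on all these values. Estimated counts came to 19609933 for the control and 1809193 for tRF-3004b, so the smaller tRF-3004b counts set most of the width of each interval. Of 12 markers of the HEK293 line 11 were detected in both libraries and LHX1 only in the control (61 and 0 counts). The most abundant, VIM, had 1447 and 980 CPM, and PAX2 had only 19 and 2 counts. The CPM was higher in the tRF-3004b library for 7 of the 12, although their sum was lower (2070 and 1577 CPM). Markers of other cells had low sums that were higher in the tRF-3004b library. All 10 fibroblast markers were detected in both, 9 of them higher there, with sums of 36.6 and 119 CPM. Of 10 epithelial markers KRT5, KRT14 and UPK3A were at 0 in both libraries and 7 were higher in the tRF-3004b library, with sums of 12.5 and 48.4 CPM. The 10 blood markers, 8 of them higher there, summed to 4.51 and 33.2 CPM, with CD3E and TYROBP at 0 in the control and HBA1 at 0 in the tRF-3004b library. Their part in the licensing ratios was not tested.

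The estimated transcript make-up of MCM3, MCM10 and GMNN differed between the libraries by more than the counting intervals. Shares here are of estimated counts, and the split is an estimate, because kallisto divides reads among transcripts with common sequence. The intervals treat each estimated count as assigned without error, so they do not cover the error of that split. MCM3 has 13 RefSeq transcripts in the table. Its non-coding transcripts held 2093 of 6109 control counts, 34.3% (exact binomial interval 33.1 to 35.5), and 27 of 455 in the tRF-3004b library, 5.93% (3.95 to 8.52). As shares of TPM these were 31.3% and 5.07%. Most of the difference lay in NR_158963, with 1644 and 13 counts. The coding transcripts of MCM3 alone had 4016 and 428 counts, a log2 ratio of 0.26 (interval 0.11 to 0.40), opposite in sign to that of the whole gene. The non-coding ones had a ratio of -2.78 (interval -3.39 to -2.24).

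Other genes had differences in the non-coding share as large as that of MCM3, in both directions. Across 1582 protein-coding genes with both kinds of transcript that reached a mean CPM of 10, the pooled non-coding share was 14.9% in the control and 13.9% in the tRF-3004b library. Of 711 such genes with at least 100 counts in the tRF-3004b library, 15 were lower by at least as many percentage points as MCM3 (itself included), and 25 were higher by at least as many.

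MCM10 has 2 transcripts whose lengths differ by 3 bases. NM_182751, the longer, held 1014 of 3847 control counts, 26.4% (interval 25.0 to 27.8), and 0 of 272 in the tRF-3004b library. The binomial limit there was 1.35%, but it takes all 272 counts as telling the 2 transcripts apart. How many reads did so is not known, and the share could be higher. For NM_018518 alone (2833 and 272 counts) the log2 ratio was 0.11. For GMNN, NM_001251989 held 41.4% (39.6 to 43.2) of control counts and 71.4% (67.6 to 75.0) of tRF-3004b counts, and NM_001251990 held 45.4% and 18.5%. MCM7 kept its main transcript, with 93.9% and 91.9%. CDT1, CDC6, MCM5 and MCM6 have 1 transcript each in the table.

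**Figure D4:**
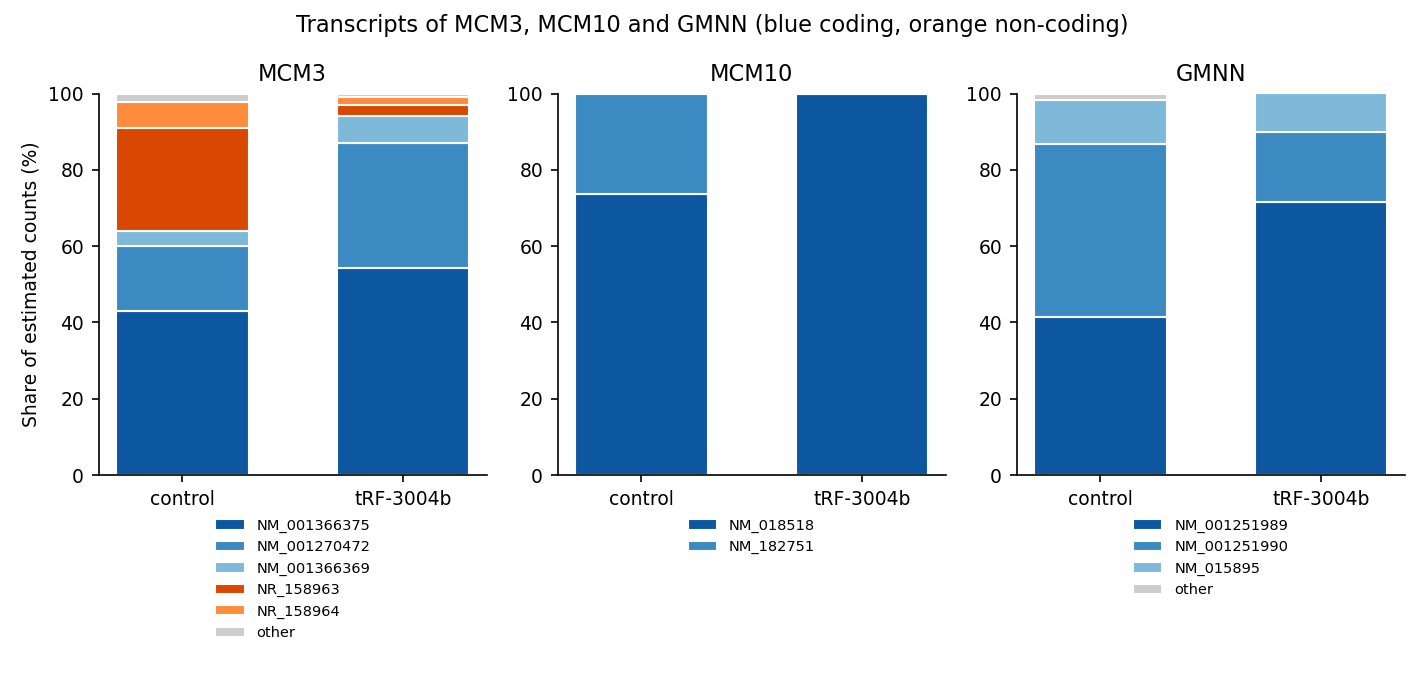
Share of estimated counts (%) by RefSeq transcript for MCM3, MCM10 and GMNN in the control and tRF-3004b libraries, with coding transcripts in blue, non-coding ones in orange and transcripts under 2% in both libraries in grey. The non-coding part of MCM3 is 34.3% for the control and 5.93% for tRF-3004b.

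The site AGATTTG, complementary to bases 2 to 8, lay in the 3′ UTR of 1 of 10 members, CDC6, where 1799 of 12179 searched genes (14.8%) had one. It reads as follows, with the site in capitals.
CDC6 3′ UTR: agtccacatggAGATTTGgaggacactgg

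CDC6 was above 0 in scaled counts, as given above, but at -0.065 with gene TPM and 1 added. CDT1 had no site in its 3′ UTR of 980 bases or its coding sequence. Whether tRF-3004b acts through these sites was not tested. Among genes with a 3′ UTR within 20% of the length of that of CDC6, 7.87% had a site. Coding sequences of 3 members held it, with 2 sites in MCM6 and 1 each in CDC6 and MCM7, where 13.0% of searched genes had one. Among genes with a coding sequence within 20% of the member's length, the share was 18.4% for MCM6, 16.4% for MCM7 and 13.4% for CDC6. UTRs came from the paired GENCODE 29 transcripts, which differ in length from the deposited ones (2820 against 4564 bases for CDC6, 3240 against 2664 for CDT1). The paired MCM3 transcript has only 2 bases of 3′ UTR, so its UTR was in effect not searched.

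The related lists are read beside the shares of all genes given above, 55.5% below 0, 28.6% with an interval below 0 and 23.3% with one above 0. Ratios of single genes in these lists are not corrected for transcript length, which moved with the ratios over the whole table. The origin recognition complex marks origins for CDC6, and its list held ORC1 to ORC6 and the associated gene LRWD1. Of these 7 genes 6 were above 0 and none passed 2-fold. Their median log2 ratio was 0.18, and 0.31 with the length trend removed, but -0.17 with gene TPM and 1 added, where that of all genes was -0.38. ORC4 stood at 0.85 (interval 0.69 to 1.02) and ORC3 at 0.54 (0.36 to 0.72). ORC2 at 0.18, ORC6 at 0.17, ORC1 at 0.065, LRWD1 at 0.41 and ORC5 at -0.16 had intervals that included 0.

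Genes that switch the loaded helicase on went both ways, 6 above and 7 below 0 of 13. Their median of -0.21 turned to 0.075 with the length trend removed and 0.14 with length and GC removed, and was -0.53 with gene TPM and 1 added. The 4 GINS subunits were all above 0 in scaled counts, with intervals above 0. GINS3 was at 0.76, GINS2 at 0.51, GINS1 at 0.40 and GINS4 at 0.39. In TPM GINS1 and GINS4 were only slightly higher, and no TPM interval was taken for these subunits. No TPM difference is therefore read for GINS1 and GINS4. CDC45, the partner of the GINS subunits in the active helicase, was at -0.38 (interval -0.63 to -0.14). The kinase CDC7, which phosphorylates the MCM ring, was at -0.48 (interval -0.68 to -0.28), whereas its activating subunit DBF4 was at 1.05 (interval 0.90 to 1.21), the one gene of the list past 2-fold. DBF4 had 2199 and 407 counts. TOPBP1 was at -0.26 with an interval below 0. DBF4B at -0.53, RECQL4 at -0.55, TICRR at -0.22, MTBP at -0.21 and DONSON at 0.026 had intervals that included 0.

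Of genes for the turnover of licensing proteins 5 of 11 were above 0. Their median of -0.046 had no stable sign, at 0.21 with the length trend removed, 0.10 with the main transcript alone and -0.38 with gene TPM and 1 added. DTL, the adaptor that directs the CUL4 ubiquitin ligase to CDT1 in S phase, had 6197 and 270 counts and a log2 ratio of -1.03 (interval -1.21 to -0.86). CUL4B was at -0.66. CDC20, an activator of the ligase that destroys geminin in mitosis, was at 1.02 (interval 0.80 to 1.23), and RBX1, a ring subunit shared by cullin ligases, was at 0.92. Among relatives and partners of the MCM proteins 5 of 6 were below 0, with a median of -0.35, but -0.016 with the length trend removed. The lowest was HROB at -1.02 (93 and 4 counts), with an interval that included 0, a gene named after its value was seen because its mean CPM was under 10. Among those that reached a mean CPM of 10 the lowest were the acetyltransferase KAT7 at -0.66 and the fork protein WDHD1 at -0.41, and the highest were MCMBP at -0.13 and MCM9 at 0.018, both with intervals that included 0.

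Of 13 E2F and RB factors, which control transcription of many of these genes, 9 were below 0 and 7 had an interval below 0. Their median was -0.36, and -0.14 with the length trend removed. The pocket proteins RBL1 and RBL2, which repress E2F targets, were lowest at -1.16 (interval -1.47 to -0.87) and -1.08 (interval -1.35 to -0.83). E2F4 was at 0.53 and E2F1, with 208 and 27 counts, at 0.54 (interval -0.09 to 1.13). Of cyclins and kinases of G1 and S 7 of 10 were above 0, with a median of 0.24 (-0.027 with gene TPM and 1 added), from CCND2 at -0.64 and CDK6 at -0.55 to CDK4 at 0.85 and CCNE2 at 1.04.

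Of genes of the fork 16 of 27 were below 0. Their median was -0.13, and -0.035 with the length trend removed, -0.0031 with the main transcript alone and -0.46 with gene TPM and 1 added. LIG1, the ligase that joins Okazaki fragments, had 550 and 16 counts and a log2 ratio of -1.61 (interval -2.43 to -0.90), and POLE, the leading strand polymerase, was at -0.88. The highest were POLE4 at 0.92 and the flap nuclease FEN1 at 0.81. Genes of deoxynucleotide supply were split, 4 above and 4 below 0, with a median of 0.011 that was -0.16 with the length trend removed, -0.039 with total counts and -0.33 with gene TPM and 1 added. They ran from DUT at -0.56 to SAMHD1 at 0.36 and DCTPP1 at 1.76. In the G2 and M list 12 of 20 were above 0, with a median of 0.12 (0.21 with the length trend removed and -0.22 with gene TPM and 1 added). Its highest genes were the mitotic kinesins CENPE at 2.14 and KIF20B at 1.44, and its lowest were the phosphatase CDC25C at -1.13 and the kinesin KIF2C at -0.75. In none of these lists did the genes lie on 1 side of 0.

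**Figure D5:**
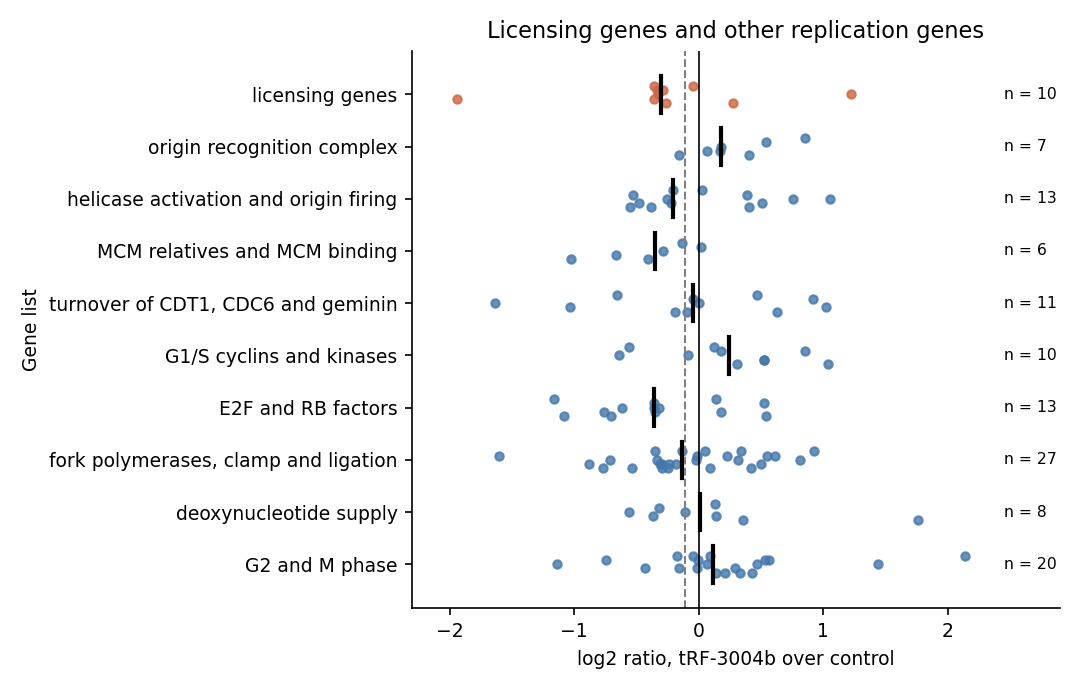
Log2 ratio (tRF-3004b over control) of each measured gene in the licensing set (orange) and 9 other lists of the cell cycle and replication (blue), with the median of each list as a black bar, the median of all genes as a dashed line and the number of genes at the right. CDT1 at -1.94 is the lowest point of all 10 lists, and its low ratio led to the choice of the set.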

How the data were processed

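The 2 poly-A libraries of HEK293T cells form 2 groups of 1. Reads were quantified with kallisto 0.46.1 against GRCh38, per the submitters' processing notes. The authors deposited estimated counts and TPM values for 70866 RefSeq transcripts, with lengths and effective lengths, per the file headers. The sources used here do not give the trimming, strand setting or annotation release.

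Transcripts were named with the RefSeq gene table (GRCh38.p14, 70245) and GENCODE 29 (293), and 328 unnamed ones (0.0723% and 0.0713% of counts) were left out. Sums per gene were taken of estimated counts, then rounded, and of TPM. TMM factors (1.02 and 0.983) came from edgeR 4.0.16 under R 4.3.3. Log2 ratios add 0.5 counts at a common library size, and their exact conditional (Clopper-Pearson) 95% intervals add none. TPM intervals are Poisson. Without molecular identifiers, reads may share a molecule. No test was made, since 1 library per group leaves no spread. Genes entered counts at a mean CPM of at least 1. The computations were tested on simulated data. Shared sequence was searched with 31-base words.

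The members and lists were chosen with earlier results of these data known. Named genes are the members, all genes of the first 2 related lists (origin recognition and firing), and the 2 highest and 2 lowest with a mean CPM of at least 10 in the others, except for a gene that is not reported here. Length and GC bins each split the genes that reached a mean CPM of 10 into 10. Other settings tried were scaling by total counts, size factors from DESeq2 1.42.0, gene TPM with 1 added, a pseudocount of 5, the length trend removed, the main transcript alone, a mean CPM of at least 10 and no filter beyond 1 count. Removal of the length and GC trend, the motif TTTGGCGG, and helicase shares over coding transcripts alone were added after seeing the data. Scripts ran under Python 3.11.15.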

Additional observations from a re-analysis of the deposited data

How the results depend on the processing

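Of 70 values of members under alternatives, 49 stayed inside the interval of the reported ratio, 17 moved outside it and 4 reversed. CDT1 and MCM5 stayed inside under all 7 alternatives, and all members did under total counts, DESeq2 size factors and a pseudocount of 5. With gene TPM and 1 added, MCM2 was at -0.69, MCM3 at -0.58, MCM4 at -0.70, MCM6 at -0.62, MCM7 at -0.38, MCM10 at -0.67, CDC6 at -0.065, GMNN at 0.85 and the members' median at -0.63. In that setting 69.5% of all genes were below 0, their median was -0.38, 680 were at least 2-fold higher, and 21.8% of genes past 2-fold were higher, against 46.3% with scaled counts. With the length trend removed, MCM4 was at -0.18, MCM6 at -0.10, MCM10 at -0.036, CDC6 at 0.57 and GMNN at 0.57, with 4 member intervals below 0. With length and GC removed, these were -0.083, -0.035, 0.018, 0.63 and 0.56, with 3 intervals below 0. With the main transcript alone, MCM3 was at 0.071, MCM10 at 0.11 and GMNN at 2.01, and 2528 genes were at least 2-fold higher. This follows from the transcript shares of these genes. At a mean CPM of at least 10, 0 members were at least 2-fold lower, since CDT1 was not included, and 533 genes were higher and 745 lower, against 1680 and 1947. With no filter these were 3081 and 5162, with a median of -0.27 over all genes. The cause of the other shifts was not tested. Depth limits CDT1 most, with 7 counts in the tRF-3004b library. No paired analysis was possible because there was 1 library per group.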
